A study of Mus musculus with 6 samples.

Results

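Semaphorins, plexins, ephrins and Eph receptors are cell surface or secreted proteins that steer cells and vessels towards or away from each other. Their genes were taken as every row of the deposited expression table whose symbol begins with Sema3 to Sema7, Plxna to Plxnd, Efna, Efnb, Epha or Ephb and continues with that family's letter or number. This gave 52 of 24318 rows: 20 semaphorins, 9 plexins, 8 ephrins, 14 Eph receptors and 1 antisense transcript, Plxna4os1. RNA of whole mouse liver was measured in 6 libraries. All mice were C57BL/6 and carried VEcadCreERT2/TAK1flox/flox, that is, loxP-flanked alleles of the kinase TAK1 (gene Map3k7) and a tamoxifen-inducible Cre recombinase under the promoter of VE-cadherin, which is active in endothelium. The 3 knockout libraries came from tamoxifen-treated mice and the 3 control libraries from untreated mice of the same genotype, so that knockout and tamoxifen cannot be told apart. Age and sex are not given in the sources used here, and nothing states whether the replicates are separate animals, so every p-value reflects only how these libraries vary. The descriptions of knockouts 1 and 3 carry a suffix whose meaning the labels do not give.

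As background, semaphorins bind plexins, and most secreted class 3 semaphorins also need a neuropilin co-receptor. Plexins act on small GTPases and the actin skeleton of the receiving cell. Ephrins are membrane-bound ligands: ephrin-A proteins hang on a lipid anchor and ephrin-B proteins cross the membrane, and Eph receptor tyrosine kinases on the neighbouring cell bind them. In vessels, ephrin-B2 marks arterial and EphB4 venous endothelium, and plexin-D1 is a receptor of developing endothelium. Several semaphorins are also made by leukocytes.

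Levels are in FPKM, a unit that allows for the length of a transcript and the size of a library, so that genes can be set side by side. Sequencing depth is unknown because no counts were used. Of the 52 rows, 23 averaged 0.5 FPKM or more across all libraries and were tested, 23 were above 0 but under that mean, and 6 were listed at 0 in every library. Changes are log2 fold changes of knockout against control on the log2(FPKM + 0.5) scale with their standard error, and a gene was called at a limma adjusted p under 0.05 over all 11842 genes tested. That scale understates changes of low genes.

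Among the 23 tested guidance genes, 3 rose in knockout livers (Sema4d, Sema4b and Efna1) and 4 fell (Sema4g, Sema6a, Plxnc1 and Efnb2). These are 30.4% of the tested members, against 27.0% of all genes tested; 14.1% of all genes were called higher and 13.0% lower, so the share of guidance genes called was near that of the whole table. The 2 groups of libraries did not overlap for 10 of the 23, which is 43.5%, the same as the 43.5% of all tested genes. The median log2 fold change was -0.13 for the members and -0.00071 for all genes. Over all genes 1669 were higher and 1534 lower; with all libraries brought to an equal total these became 1356 and 2081, the median of all genes moved to -0.11, and the same 7 members were called. The calls fell mostly on ligands, with 3 of 14 tested ligands higher and 3 lower, against 0 of 9 tested receptors higher and 1 lower; this difference was not tested.

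**Figure D1:**
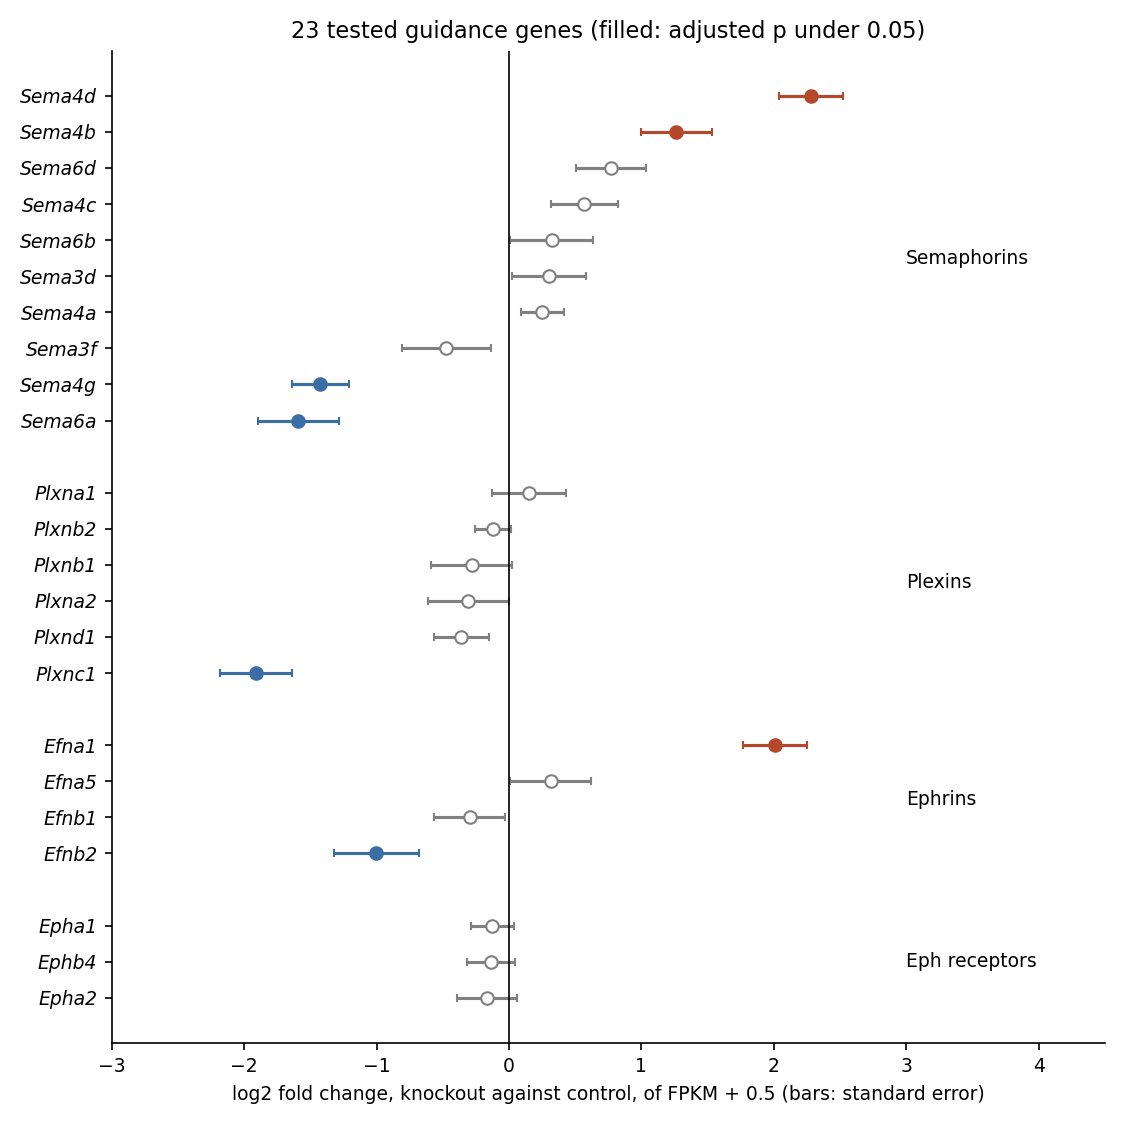
Log2 fold changes of knockout against control for the 23 tested guidance genes, grouped by family, on the log2(FPKM + 0.5) scale. Bars are standard errors and filled points passed the adjusted p threshold of 0.05; Sema4d lies highest at 2.28 and Plxnc1 lowest at -1.91, while the 3 Eph receptors lie between -0.16 and -0.13.

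The knockout of the targeted kinase could not be checked in whole liver. Map3k7 lay at 7.35 to 9.31 FPKM in knockout and 8.498 to 9.14 FPKM in control libraries (log2 fold change -0.04 ± 0.16, limma adjusted p = 0.868), and cells outside the endothelium express it too. All 9 hepatocyte markers used were present, with summed levels of 11683 to 13845 FPKM in knockout and 15659 to 21054 FPKM in control libraries. Of 14 general endothelial markers 10 were lower and none higher, at summed levels of 61.6 to 72.2 FPKM in knockout and 102 to 153 FPKM in control libraries, although Cdh5 itself was not called (16.3 to 18.8 FPKM in knockout and 10.3 to 23.1 FPKM in control libraries; log2 fold change 0.28 ± 0.26, limma adjusted p = 0.469, and 0.61 with adjusted p = 0.0352 without control 3). Of 10 sinusoidal markers 8 were lower, at 47.1 to 56.2 FPKM in knockout and 170 to 257 FPKM in control libraries. All 8 neutrophil markers were higher (1695 to 1783 FPKM in knockout and 34.2 to 71.6 FPKM in control libraries), as were 9 of 10 monocyte and macrophage markers (1575 to 1703 FPKM in knockout and 539.9 to 1010 FPKM in control libraries) and 8 of 10 stellate cell and fibroblast markers (367 to 515 FPKM in knockout and 175 to 221 FPKM in control libraries). In whole tissue, fewer cells of a type and less RNA per cell cannot be told apart.

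The class 4 semaphorins, transmembrane ligands of the B-type plexins, diverged from each other. Sema4d (ENSMUSG00000021451, chromosome 13, 51685529 to 51793747 in GRCm38), the CD100 protein of T cells and platelets, which binds plexin-B1 and, on B cells, CD72, measured 4.20, 4.31 and 4.49 FPKM in knockout and 0.586, 0.304 and 0.629 FPKM in control libraries. The knockout libraries lay close together and all were far above the controls. Its mean was 4.33 ± 0.145 FPKM in knockout and 0.506 ± 0.177 FPKM in control livers (SD, n = 3 each), an 8.56-fold difference of means. Its log2 fold change was 2.28 ± 0.24 (limma adjusted p = 3.02e-04), and 2.92 with a pseudocount of 0.1. Beside this rise, markers of T and NK cells summed to 8.89 to 13.6 FPKM in knockout and 4.14 to 6.99 FPKM in control libraries. Of the 7 tested, 2 (28.6%) were called higher and 5 were not called, with a median log2 fold change of 0.99. Over all genes 14.1% were called higher, and the difference from that share was not tested. Platelet markers summed to 21.9 to 28.97 FPKM in knockout and 4.18 to 11.3 FPKM in control libraries, with 3 of 4 higher. All 4 B cell markers were higher as well, at 13.4 to 29.0 FPKM in knockout and 1.42 to 4.93 FPKM in control libraries. The part of these cells, and of the neutrophils and monocytes above, in the rise of Sema4d was not tested.

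Sema4b (ENSMUSG00000030539, chromosome 7, 80186841 to 80226527), another transmembrane class 4 semaphorin, measured 3.52, 2.62 and 3.63 FPKM in knockout and 0.780, 0.925 and 1.54 FPKM in control libraries. Every knockout library was above every control, and control 3 was the highest of the controls. The log2 fold change was 1.27 ± 0.26 (limma adjusted p = 0.00742). Sema4c, a ligand of plexin-B2, measured 2.32, 1.85 and 2.76 FPKM in knockout and 1.33, 1.08 and 1.79 FPKM in control libraries. Its groups did not overlap, but the lowest knockout and the highest control nearly met, and its log2 fold change of 0.57 ± 0.25 missed the threshold (limma adjusted p = 0.129).

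Sema4g (ENSMUSG00000025207, chromosome 19, 44989101 to 45003397), also described in mouse as a ligand of plexin-B2, was the most abundant semaphorin of control livers. It measured 30.5, 15.9 and 24.1 FPKM in knockout and 62.7, 63.9 and 58.7 FPKM in control libraries. All knockout libraries were far under the lowest control, and knockout 2 was the lowest. Sema4g averaged 23.5 ± 7.32 FPKM in knockout and 61.8 ± 2.71 FPKM in control livers, with a log2 fold change of -1.42 ± 0.22 (limma adjusted p = 0.00165). Of the 9 hepatocyte markers 4 were lower, 1, Fga, was higher and 4 were not called, with a median log2 fold change of -0.43. Their part in the fall of Sema4g was not tested. Sema4a, which binds plexins of the B and D types and in mouse the protein Tim-2, measured 23.5, 29.7 and 33.8 FPKM in knockout and 24.6, 24.8 and 22.7 FPKM in control libraries. These groups overlapped, and the log2 fold change of 0.25 ± 0.16 did not pass (limma adjusted p = 0.283).

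The balance within class 4 therefore differed between the groups. The ratio of Sema4g to Sema4a was 1.30, 0.534 and 0.712 in knockout and 2.55, 2.58 and 2.59 in control libraries. The ratio of Sema4g to Sema4d was 7.25, 3.68 and 5.37 in knockout and 107, 210 and 93.3 in control libraries. Sema4a was thus the more abundant of the pair with Sema4g in knockout 2 and knockout 3, and the less abundant in knockout 1 and in every control.

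**Figure D2:**
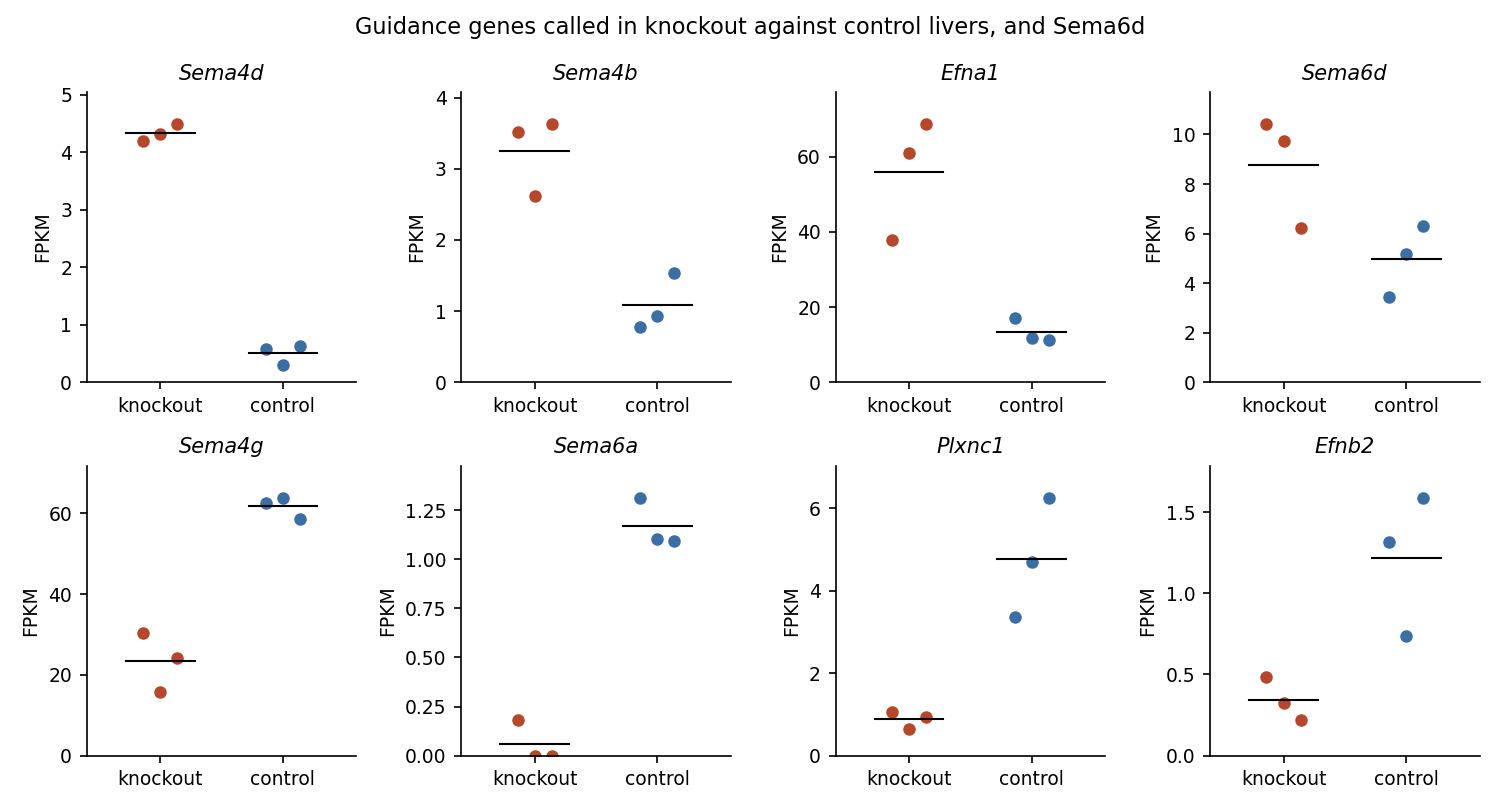
FPKM in each library of the 7 called guidance genes and of Sema6d, with knockout left of control; points are libraries and lines are means of 3. The groups do not overlap in any panel but that of Sema6d, where knockout 3 at 6.22 FPKM lies under control 3 at 6.32 FPKM.

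Of the class 6 semaphorins, transmembrane ligands of the A-type plexins, Sema6a fell, and Sema6d and Sema6b did not pass the threshold. Sema6a measured 0.179, 0 and 0 FPKM in knockout and 1.31, 1.10 and 1.09 FPKM in control libraries. It was thus at or near 0 in all knockout libraries, and a listed 0 in this table can be a failed estimate. Its log2 fold change was -1.59 ± 0.31 (limma adjusted p = 0.00515); with a pseudocount of 0.1 it was -3.17 and with a pseudocount of 1 it was -1.04. Sema6d, a ligand of plexin-A1, measured 10.4, 9.72 and 6.22 FPKM in knockout and 3.42, 5.16 and 6.32 FPKM in control libraries. Knockouts 1 and 2 were above all controls, and knockout 3 was level with control 3. Its log2 fold change of 0.77 ± 0.26 missed the threshold (limma adjusted p = 0.0571). Of 18 alternatives 15 also left Sema6d uncalled, with limma adjusted p up to 0.185, reached without control 1. It passed without knockout 3 (0.99, adjusted p = 0.0306), without control 3 (0.95, adjusted p = 0.0408) and with library weights (0.82, adjusted p = 0.0377). Sema6b, a ligand of plexin-A4, overlapped between the groups at 1.53, 1.89 and 3.20 FPKM in knockout and 1.53, 1.10 and 2.32 FPKM in control libraries (0.32 ± 0.31, limma adjusted p = 0.484).

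Of the 7 secreted class 3 semaphorins, 2 were abundant enough to test, and neither was called. Sema3f, which signals through neuropilin-2, measured 1.999, 2.51 and 0.850 FPKM in knockout and 1.83, 2.71 and 3.13 FPKM in control libraries (log2 fold change -0.47 ± 0.33, limma adjusted p = 0.335). Sema3d measured 0.950, 0.919 and 1.15 FPKM in knockout and 0.662, 0.550 and 0.976 FPKM in control libraries (0.30 ± 0.28, limma adjusted p = 0.455). Summed over all 20 semaphorins, the level was 80.0, 71.5 and 82.6 FPKM in knockout and 100.1, 103 and 101 FPKM in control libraries. Sema4g made up 22.2% to 38.1% of that sum in knockout and 57.9% to 62.6% in control libraries, and Sema4d 5.25% to 6.03% in knockout and 0.294% to 0.620% in control libraries.

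Of the plexins, the semaphorin receptors, only Plxnc1 was called among the 6 tested. Plxnc1 (ENSMUSG00000074785, chromosome 10, 94790866 to 94944835), the receptor of the lipid-anchored semaphorin Sema7a, measured 1.05, 0.653 and 0.929 FPKM in knockout and 3.36, 4.70 and 6.25 FPKM in control libraries. All knockout libraries were far under the lowest control. Plxnc1 averaged 0.878 ± 0.205 FPKM in knockout and 4.77 ± 1.45 FPKM in control livers, 5.43-fold higher in control by the means, with a log2 fold change of -1.91 ± 0.27 (limma adjusted p = 0.00117). Its fall ran beside lower levels of 8 of 10 sinusoidal and 10 of 14 general endothelial markers, whose part in it was not tested. Not called were Stab2 (log2 fold change 0.32) and Mrc1 (0.22) of the sinusoidal list. In the general list Cdh5, Pecam1 (-0.21), Emcn (0.53) and Eng (-0.39) were not called. Relative to Plxnd1, which was not called and is not taken here as a measure of endothelium, the level of Plxnc1 was 0.210, 0.132 and 0.225 in knockout and 0.657, 0.834 and 0.783 in control libraries.

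Plxnd1 itself measured 5.01, 4.93 and 4.13 FPKM in knockout and 5.12, 5.63 and 7.99 FPKM in control libraries. The groups did not overlap, but knockout 1 and control 1 were nearly equal, and the log2 fold change of -0.36 ± 0.21 did not pass (limma adjusted p = 0.240). Plxnb2, receptor of Sema4c and Sema4g, was the most abundant plexin in every library, at 33.1, 27.9 and 33.0 FPKM in knockout and 32.4, 32.8 and 36.9 FPKM in control libraries. It made up 67.6% to 73.0% of the summed plexin level in knockout and 61.6% to 64.2% in control libraries, and its log2 fold change was -0.12 ± 0.14 (limma adjusted p = 0.568). Plxnb1, the receptor of Sema4d, overlapped at 5.39, 2.77 and 2.76 FPKM in knockout and 5.44, 5.02 and 2.94 FPKM in control libraries (-0.28 ± 0.30, limma adjusted p = 0.534). The A-type plexins, which serve class 3 semaphorins with neuropilins and class 6 semaphorins without them, were low. Plxna1 measured 2.36, 1.77 and 1.85 FPKM in knockout and 1.38, 1.38 and 2.67 FPKM in control libraries (0.15 ± 0.28, limma adjusted p = 0.728). Plxna2 measured 1.52, 1.45 and 1.97 FPKM in knockout and 2.71, 1.20 and 2.85 FPKM in control libraries (-0.31 ± 0.31, limma adjusted p = 0.497).

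Among the ephrins, Efna1 rose and Efnb2 fell. Efna1 (ENSMUSG00000027954, chromosome 3, 89271733 to 89281142), which encodes ephrin-A1, a ligand of EphA2 first described in human endothelial cells as a gene induced by TNF, measured 37.9, 61.1 and 68.7 FPKM in knockout and 17.0, 11.7 and 11.3 FPKM in control libraries. Even the lowest knockout library, knockout 1, held more than any control. Efna1 averaged 55.9 ± 16.0 FPKM in knockout and 13.3 ± 3.21 FPKM in control livers, a 4.20-fold difference of means and a log2 fold change of 2.01 ± 0.24 (limma adjusted p = 5.53e-04). It was the most abundant ephrin in every library and made up 91.5% to 94.2% of the summed ephrin level in knockout and 62.2% to 78.4% in control libraries.

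Efnb2 (ENSMUSG00000001300, chromosome 8, 8617434 to 8661242), the ephrin of arterial endothelium, measured 0.485, 0.325 and 0.220 FPKM in knockout and 1.32, 0.736 and 1.59 FPKM in control libraries. The groups did not overlap, with control 2 nearest the knockouts. Its log2 fold change of -1.0015 ± 0.32 passed narrowly (limma adjusted p = 0.0446). The call was lost when any library but control 2 was left out (log2 fold changes of -1.12 to -0.84, adjusted p of 0.0576 to 0.138), with a pseudocount of 0.1 (adjusted p = 0.0539) and with library weights (adjusted p = 0.0602). Of the 6 other arterial markers only 3 were tested, of which Hey1 was higher, Dll4 lower and Gja4 not called. All 6 summed to 2.93 to 6.52 FPKM in knockout and 7.32 to 10.1 FPKM in control libraries. Gja4 had the highest mean of the 6 in both groups, and it overlapped at 1.07 to 3.02 FPKM in knockout and 2.57 to 6.64 FPKM in control libraries. The part of these cells in the fall of Efnb2 was not tested.

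The remaining tested ephrins were not called. Efnb1, a transmembrane ligand of EphB receptors, measured 1.90, 3.81 and 3.15 FPKM in knockout and 2.77, 4.11 and 4.14 FPKM in control libraries (log2 fold change -0.30 ± 0.27, limma adjusted p = 0.455). Efna5 measured 0.790, 0.717 and 0.638 FPKM in knockout and 0.252, 0.600 and 0.619 FPKM in control libraries; the groups did not overlap, yet knockout 3 and control 3 were nearly equal (0.32 ± 0.31, limma adjusted p = 0.481). Efna3 and Efna4, which follow Efna1 on chromosome 3 after gaps of 32.8 kb and a further 10.4 kb between them in GRCm38, were listed at 0 in all 6 libraries.

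The 3 tested Eph receptors were not called. Epha1, the most abundant, measured 9.22, 8.40 and 7.95 FPKM in knockout and 10.4, 9.41 and 8.25 FPKM in control libraries (log2 fold change -0.13 ± 0.16, limma adjusted p = 0.614). In GRCm38 6.01% of its exonic bases overlap exons of Zyx on the opposite strand, and Zyx measured 36.1 to 45.8 FPKM in knockout and 15.6 to 21.2 FPKM in control libraries; the sources used here do not say that strand was used in counting, so reads of this stretch cannot be told apart. Ephb4, the venous receptor of ephrin-B2, measured 5.51, 5.38 and 6.25 FPKM in knockout and 6.77, 5.24 and 7.07 FPKM in control libraries (-0.14 ± 0.18, limma adjusted p = 0.631). Epha2, a receptor of ephrin-A1, measured 2.46, 2.63 and 3.76 FPKM in knockout and 3.91, 2.90 and 3.19 FPKM in control libraries (-0.16 ± 0.23, limma adjusted p = 0.639). These groups overlapped for each of the 3 genes.

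For 2 pairs the ligand and receptor levels are set side by side, which restates the calls of Efna1 and Efnb2 and is no separate result. Efna1 was 2.93, 5.27 and 5.33 times the summed level of the EphA receptors in knockout libraries, against 1.15, 0.911 and 0.925 times in control libraries. Ephb4 was 11.4, 16.6 and 28.4 times the level of Efnb2 in knockout and 5.14, 7.12 and 4.45 times in control libraries. The groups did not overlap in either ratio, but the ligand share was higher in knockout for Efna1 and lower for Efnb2. The tested receptors on the other side were not called.

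**Figure D3:**
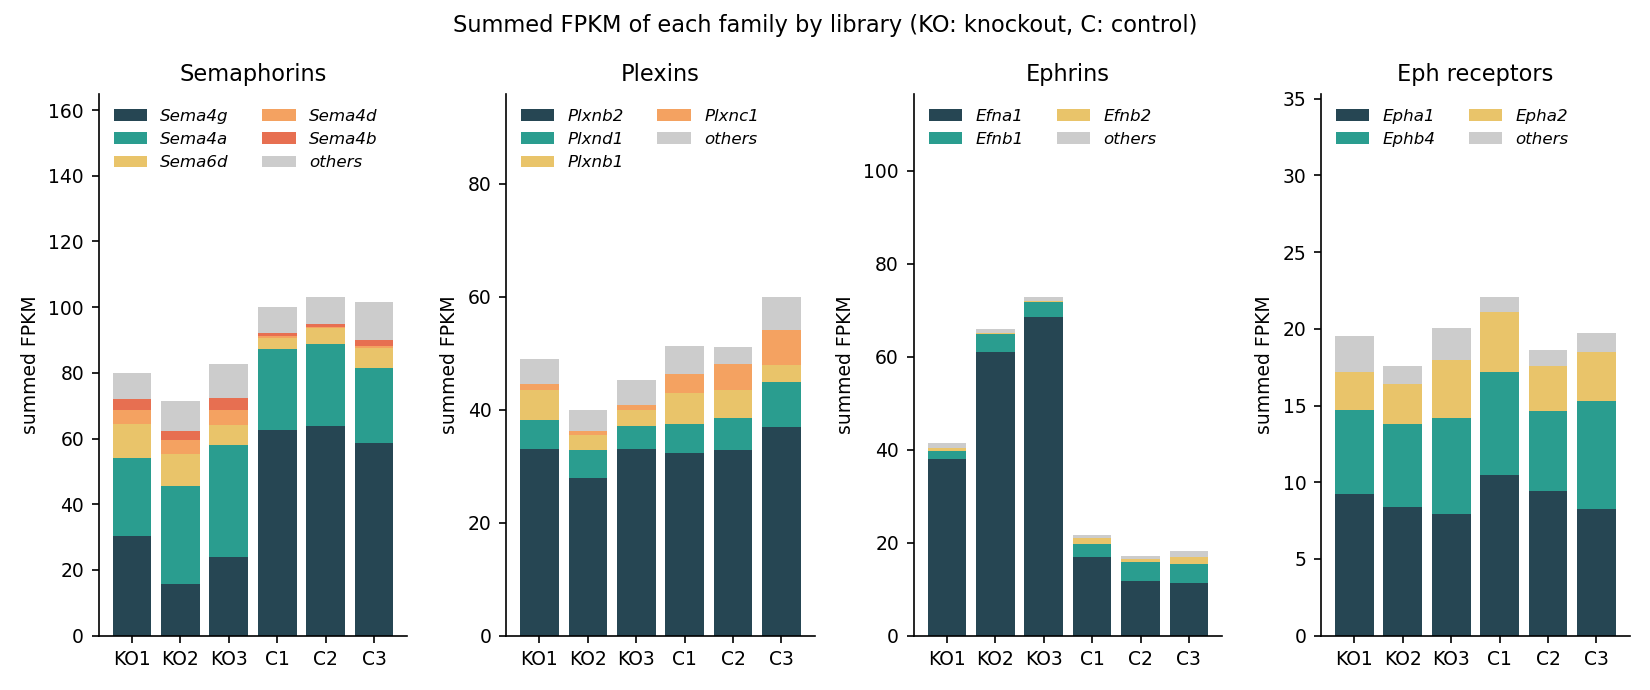
Summed FPKM of the semaphorins, plexins, ephrins and Eph receptors in each library (KO, knockout; C, control), with the leading genes of each family coloured and the others in grey. The ephrin sum is 41.4 to 72.9 FPKM in knockout and 17.1 to 21.7 FPKM in control libraries, with Efna1 making up 91.5% to 94.2% of it in knockout and 62.2% to 78.4% in control libraries, while the Eph receptor sum overlaps at 17.6 to 20.0 FPKM in knockout and 18.6 to 22.1 FPKM in control libraries.

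Guidance genes under the mean of 0.5 FPKM were mostly at the floor of these libraries, and the 6 listed at 0 throughout were Efna3, Efna4, Epha5, Epha6, Epha8 and Epha10. Among the 23 above 0, the groups did not overlap for 5 with knockout higher and 2 with knockout lower. These 7 are 30.4% of the 23, against 12.7% of all 3489 genes above 0 but under that mean (9.29% with knockout higher and 3.38% with knockout lower), a difference that was not tested. Sema7a, the ligand of Plxnc1 and of a beta1 integrin, measured 0.259, 1.30 and 0.735 FPKM in knockout libraries and was listed at 0 in all controls. Sema3c, a secreted ligand of neuropilins, measured 0.0841, 0.188 and 0.191 FPKM in knockout and 0.703, 0.730 and 0.729 FPKM in control libraries. When no filter on the mean was used, 15331 genes including 46 members were tested, and 19.2% of all genes (10.2% higher and 8.99% lower) and 19.6% of the members were called. In that fit the 2 members called beside the 7 above were Sema7a (log2 fold change 1.25 ± 0.31, limma adjusted p = 0.0267) and Sema3c (-0.90 ± 0.19, limma adjusted p = 0.0137).

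The other low genes with separated groups were not called in that fit. Ephb3 measured 0.506, 0.226 and 0.459 FPKM in knockout and 0.106, 0.110 and 0.0975 FPKM in control libraries (limma adjusted p = 0.0870). Epha3 measured 0.846, 0.354 and 0.599 FPKM in knockout and 0.110, 0.229 and 0.305 FPKM in control libraries (limma adjusted p = 0.121). Both are receptor kinases of the Eph family, and in both knockout 2 came nearest the controls. Plxnb3, a plexin, was at 0.153 to 0.344 FPKM in knockout and 0 to 0.0746 FPKM in control libraries (limma adjusted p = 0.128). Epha4, another Eph receptor, was at 0.0729 to 0.222 FPKM in knockout and 0 to 0.0629 FPKM in control libraries (limma adjusted p = 0.263). Sema5b, a transmembrane semaphorin, was at 0 to 0.104 FPKM in knockout and 0.192 to 0.884 FPKM in control libraries (limma adjusted p = 0.125). The remaining 16 (Efna2, Efnb3, Epha7, Ephb1, Ephb2, Ephb6, Plxna3, Plxna4, Plxna4os1, Sema3a, Sema3b, Sema3e, Sema3g, Sema4f, Sema5a and Sema6c) overlapped between groups, and none exceeded 0.609 FPKM in any library. Plxna4os1 was above 0 in control 1 alone, at 0.242 FPKM.

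**Figure D4:**
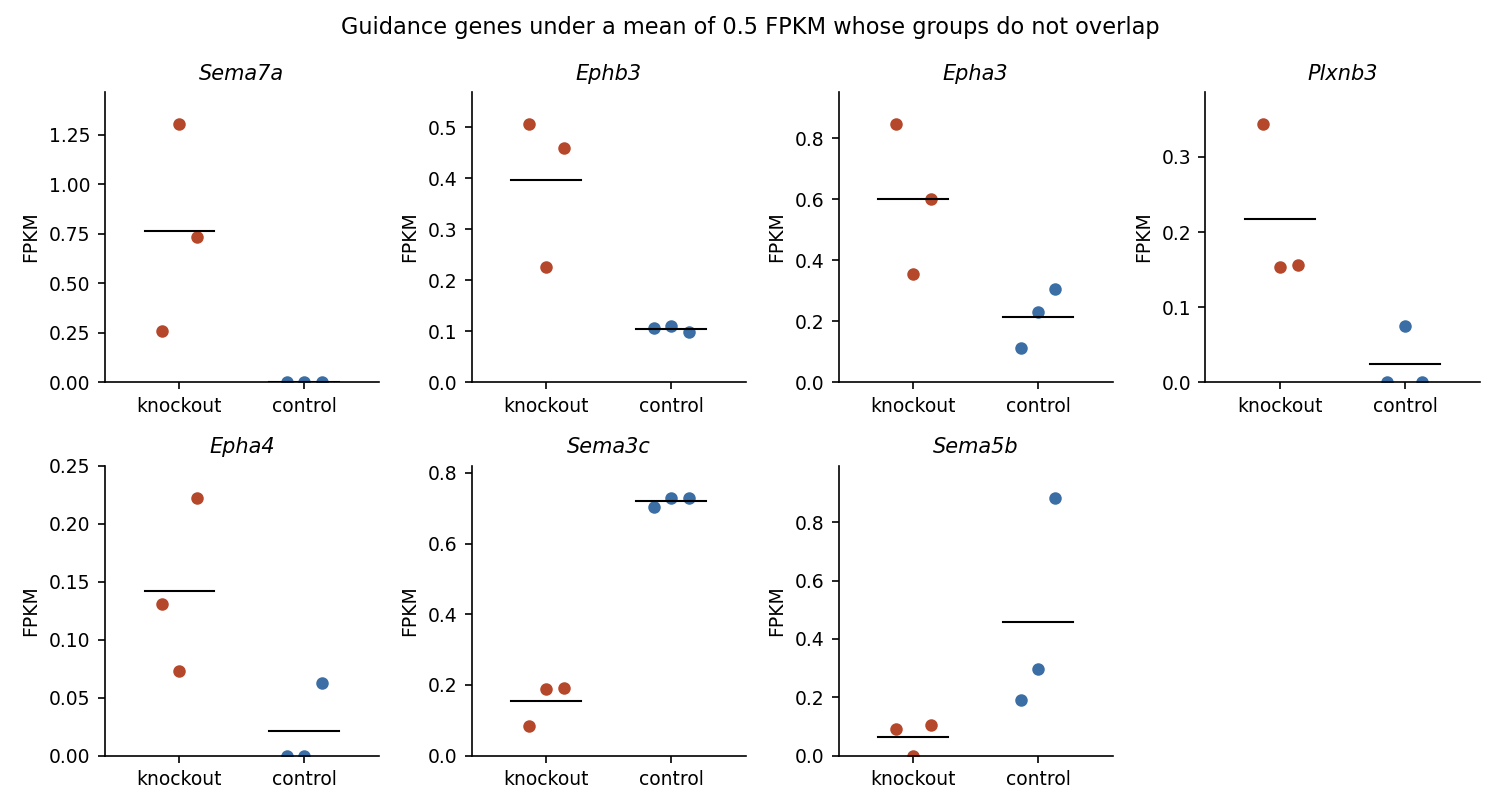
FPKM in each library of the 7 guidance genes under a mean of 0.5 FPKM whose groups do not overlap, with knockout left of control; points are libraries and lines are means of 3. Sema7a, Ephb3, Epha3, Plxnb3 and Epha4 are higher in knockout and Sema3c and Sema5b higher in control livers, all at no more than 1.30 FPKM.

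Of 21 listed co-receptors and mediators of the semaphorins 18 were tested, of which 5 rose and 1 fell, with a median log2 fold change of 0.08. These 6 are 33.3% of those tested, near the 27.0% called among all genes. The neuropilins, co-receptors of class 3 semaphorins and of VEGF, were not called. Nrp1 measured 9.65, 9.21 and 12.9 FPKM in knockout and 10.6, 11.2 and 12.9 FPKM in control libraries (log2 fold change -0.13 ± 0.18, limma adjusted p = 0.624). Nrp2 measured 3.14, 3.94 and 4.41 FPKM in knockout and 3.77, 2.998 and 6.18 FPKM in control libraries (-0.11 ± 0.27, limma adjusted p = 0.793; its direction turned without knockout 1 or without control 3). Mical2, an enzyme of a family that oxidises actin downstream of plexins, measured 6.60, 10.1 and 6.93 FPKM in knockout and 2.45, 1.67 and 3.56 FPKM in control libraries (1.47 ± 0.27). Farp1, of a family of exchange factors linked to plexins, measured 6.61, 7.95 and 5.94 FPKM in knockout and 1.97, 2.61 and 4.30 FPKM in control libraries (1.13 ± 0.26). Both were above every control in all knockout libraries. The listed receptors of class 4 semaphorins outside the plexins moved in opposite directions: Cd72 of B cells was at 5.68 to 7.02 FPKM in knockout and 1.48 to 4.31 FPKM in control libraries (1.10 ± 0.31, limma adjusted p = 0.0267), and Timd2, encoding Tim-2, at 12.2 to 17.0 FPKM in knockout and 27.3 to 32.2 FPKM in control libraries (-1.07 ± 0.17, limma adjusted p = 0.00181). The call of Cd72 was lost without any library but control 1 or control 3, with adjusted p of 0.0512 to 0.0778, and with all libraries but no filter on the mean (adjusted p = 0.0518). That of Mical1 (1.36 ± 0.33) was lost without knockout 1 or control 1, with adjusted p of 0.0558 and 0.0503.

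Of 19 listed mediators of ephrins and Eph receptors 17 were tested, of which 3 rose and 1 fell, with a median of -0.03. This share of 23.5% was also near the 27.0% of all genes. Arhgef15, an exchange factor of vessels that Eph receptors act on, measured 0.507, 1.36 and 0.576 FPKM in knockout and 2.55, 3.30 and 2.93 FPKM in control libraries (log2 fold change -1.43 ± 0.30). It lay under every control in each knockout library, beside the lower endothelial markers. Sdcbp, or syntenin, which binds the tail of ephrin-B proteins, was at 44.7 to 52.7 FPKM in knockout and 30.3 to 35.5 FPKM in control libraries (0.59 ± 0.14, limma adjusted p = 0.0115, and 0.0564 without control 2). The ephrin-cleaving protease Adam10 (0.65 ± 0.19, limma adjusted p = 0.0315) and the exchange factor Vav3 (0.93 ± 0.30, limma adjusted p = 0.0442) were called with all libraries but not without any library other than control 3, with adjusted p of 0.0550 to 0.130, nor with all libraries brought to an equal total (adjusted p of 0.0981 for Adam10 and 0.0696 for Vav3).

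Of 28 listed genes of other guidance families 11 were tested, of which 3 rose and 2 fell, with a median of 0.58. The 5 called are 45.5% of so few tested genes, against 27.0% of all genes, and this difference was not tested. Unc5b, a netrin receptor known from vessels, measured 3.11, 4.26 and 5.05 FPKM in knockout and 0.517, 0.536 and 0.476 FPKM in control libraries (log2 fold change 2.18 ± 0.25). Robo1, a Slit receptor, measured 5.70, 7.95 and 4.81 FPKM in knockout and 2.27, 1.95 and 1.57 FPKM in control libraries (1.44 ± 0.24). Ntn1, the ligand netrin-1, measured 6.21, 8.39 and 5.82 FPKM in knockout and 2.72, 2.74 and 2.92 FPKM in control libraries (1.13 ± 0.20). These 3 were higher in every knockout library than in any control. Robo4, the endothelial member of the Robo family, measured 1.43, 0.852 and 1.12 FPKM in knockout and 2.75, 2.49 and 5.48 FPKM in control libraries (-1.26 ± 0.31). Ntn4, a netrin of basement membranes, measured 0.540, 0.401 and 1.02 FPKM in knockout and 2.44, 2.73 and 6.07 FPKM in control libraries (-1.82 ± 0.36). For both, control 3 stood well above the other controls, and all controls were above all knockouts.

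**Figure D5:**
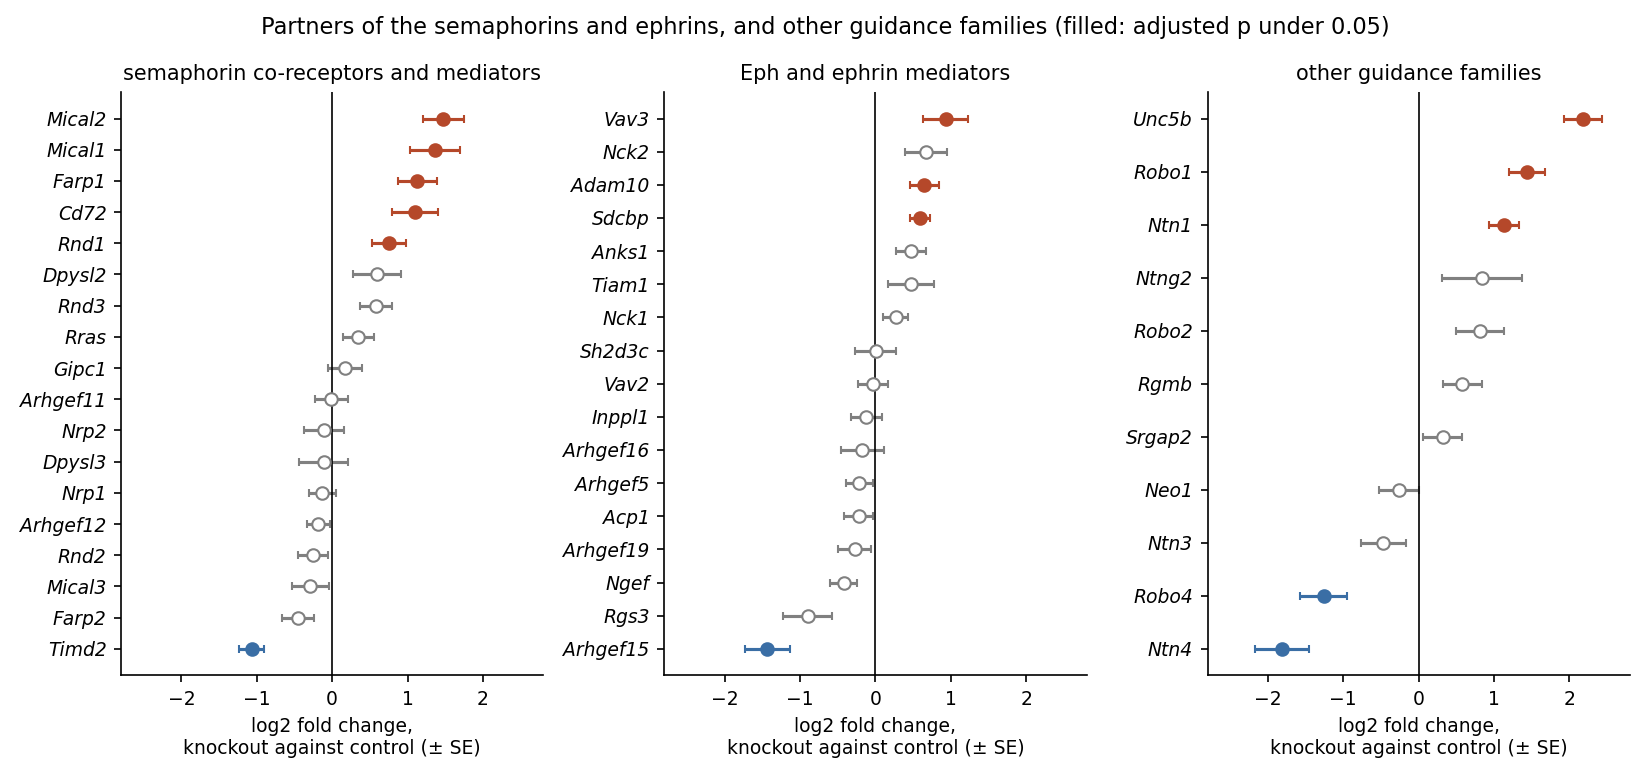
Log2 fold changes of knockout against control, with standard errors, for the tested genes of the 3 lists of partner and other guidance genes; filled points passed the adjusted p threshold of 0.05. Unc5b at 2.18 and Mical2 at 1.47 are among the rises, and Ntn4 at -1.82 and Arhgef15 at -1.43 among the falls.

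Promoter windows of 5 of the 7 called members are shown for their base composition. Each window is the 250 bases before a RefSeq start site on GRCm38.p6, 5′ to 3′ on the gene's strand, in lower case with motif matches in capitals. Windows with more than 30 bases inside an annotated exon of the gene are not shown, so that of Efna1 belongs to the second of its listed starts and that of Sema4d to the third. For this reason none is shown for Sema4g, and none was used for Sema6a, so the genes that fell are shown only in part. The windows lie at chr3:89279646-89279895 (minus strand, Efna1), chr7:80186620-80186869 (plus strand, Sema4b), chr13:51739447-51739696 (minus strand, Sema4d), chr10:94944846-94945095 (minus strand, Plxnc1) and chr8:8661243-8661492 (minus strand, Efnb2).
Efna1 (rose): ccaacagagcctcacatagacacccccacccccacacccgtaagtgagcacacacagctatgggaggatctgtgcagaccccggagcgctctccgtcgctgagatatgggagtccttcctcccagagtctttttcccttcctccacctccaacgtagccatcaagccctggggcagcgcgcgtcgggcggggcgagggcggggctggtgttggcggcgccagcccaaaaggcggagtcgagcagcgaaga
Sema4b (rose): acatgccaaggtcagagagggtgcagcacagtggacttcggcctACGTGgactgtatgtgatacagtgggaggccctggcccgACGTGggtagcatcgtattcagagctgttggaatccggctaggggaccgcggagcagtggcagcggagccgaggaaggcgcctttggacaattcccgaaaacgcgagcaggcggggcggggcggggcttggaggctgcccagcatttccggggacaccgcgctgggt
Sema4d (rose): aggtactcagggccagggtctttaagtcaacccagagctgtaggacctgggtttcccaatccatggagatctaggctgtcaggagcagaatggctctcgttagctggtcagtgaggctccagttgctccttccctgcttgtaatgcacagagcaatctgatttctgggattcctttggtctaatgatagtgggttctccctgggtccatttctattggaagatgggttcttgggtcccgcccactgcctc
Plxnc1 (fell): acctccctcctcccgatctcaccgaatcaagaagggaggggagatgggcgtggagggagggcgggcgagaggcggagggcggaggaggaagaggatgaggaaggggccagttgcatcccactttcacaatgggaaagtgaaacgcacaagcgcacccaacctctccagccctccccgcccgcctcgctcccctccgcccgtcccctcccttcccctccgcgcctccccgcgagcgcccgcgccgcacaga
Efnb2 (fell): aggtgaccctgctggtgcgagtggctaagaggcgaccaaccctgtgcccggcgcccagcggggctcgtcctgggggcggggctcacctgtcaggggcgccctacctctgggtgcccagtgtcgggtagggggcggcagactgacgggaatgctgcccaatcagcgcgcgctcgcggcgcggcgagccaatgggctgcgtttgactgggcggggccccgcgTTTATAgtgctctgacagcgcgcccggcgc

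The windows of genes that rose held 18 (Efna1), 20 (Sema4b) and 2 (Sema4d) CpG pairs. Those of genes that fell held 22 (Plxnc1), 27 (Efnb2) and 24 (Sema4g, not shown), against a median of 6 over 32851 windows of all genes. Their G and C content was 64.4% for both Efna1 and Sema4b, 68.8% for Plxnc1, 72% for Efnb2 and 73.2% for Sema4g, while that of Sema4d was 52.4%, equal to the median of all windows. Motifs were searched on both strands. The core ACGTG of hypoxia response elements, present in 16.6% of all windows and contained in the E-box CACGTG (6.02%), occurred in Sema4b at positions -206 and -167 from the start, and on the reverse strand at -25 in the window of Sema4g. The TATA box letters TATAAA, present in 12.4% of windows, occurred on the reverse strand of Efnb2 at position -30. The NF-kappaB consensus (3.9% of windows), the AP-1 letters TGANTCA (6.75%) and the STAT letters TTCNNNGAA (7.02%) were not in the 5 windows shown, which says only that these letters are absent there. Windows of other starts, not shown, did hold matches. At the first listed start of Sema4d the AP-1 letters occurred at -239 and the hypoxia core, on the reverse strand, at -62. At the second listed start of Sema4b the E-box, with the hypoxia core inside it, occurred at -102. A match is a description of letters and not a site.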

How the data were processed

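Whole liver RNA of 3 knockout and 3 control samples was sequenced from both fragment ends after library preparation with a TruSeq v2 kit, per the labels' protocols. Trimmomatic 0.33, TopHat2 2.1.0, Cuffdiff 2.2.1, Cuffnorm 2.2.1 and build mm9 are named in the submitters' processing notes, and no source used here gives the gene annotation. FPKM values in the deposited table were made by the authors, 1 column per library, and these were used as they stand. No counts were used, so depth and counting intervals are unknown.

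Differences, knockout minus control, were tested with limma 3.58.1 (R 4.3.3; lmFit, then eBayes with trend, two-sided) on log2(FPKM + 0.5) in the 11842 genes that averaged 0.5 FPKM or more, with Benjamini-Hochberg adjustment over all of them. Alb, listed at 0 in all controls, was left out as a failed estimate. The fit was tested on simulated data, in which far fewer genes were changed than were called here. It called 49.5% of 95 genes changed by a log2 of 1 and 91.4% of 93 changed by 2. Of the unchanged genes it called 0.0181%. A gene that was not called can therefore still hold a change of the smaller size. Genes named are all tested members, Map3k7, Cdh5, Nrp1, Nrp2 and, per partner list, up to 5 called genes with the largest change. Fga, Hey1, Dll4, Gja4, Zyx, Stab2, Mrc1, Pecam1, Emcn and Eng were named after their values were seen. The members and lists were chosen with earlier results of these data known. Places and exon overlaps are from GENCODE M21 (GRCm38), which is not the authors' build and matched all 52 members, and promoter windows from RefSeq (GRCm38.p6), matched for 45. No window on chromosome 18 was used. The alternatives were other pseudocounts, filters, scalings and variance models, library weights, Alb kept, leaving out each library and a replicate block. Figures were drawn with matplotlib 3.10.9.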

Additional observations from a re-analysis of the deposited data

How the results depend on the processing

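With 18 alternatives on 41 named genes, 694 of 732 values kept their direction and their side of the threshold, 31 lost the call, 4 gained it and 3 reversed. The reversals were of genes that were not called: Map3k7 (0.062 without knockout 3, in a range of -0.10 to 0.062 without each library) and Nrp2 (0.0091 without knockout 1 and 0.15 without control 3, in a range of -0.31 to 0.15). Sema4d, Sema4b, Efna1, Sema4g and Plxnc1 were called under every alternative, and Sema6a under the 16 that kept it in the test. With a minimum mean of 1 FPKM, which removes Sema6a and Efnb2, 2 members were lower. Without each library in turn, 3 or 4 members were higher and 3 or 4 lower, while genes called lower numbered 935 to 1484 over the whole table (990 without control 1 and 935 without control 2). Libraries with the same number did not deviate together (correlations of -0.01, -0.000123 and 0.00151), and no library correlated best with its own number. These values gave no sign that the numbers are a pairing, but with 3 libraries per group they cannot exclude one. With the replicate block 3 members were higher and 3 lower, with 1575 and 1385 genes called higher and lower in all. Efnb2 (limma adjusted p = 0.0684) was the member not called in that fit. Depth is unknown, and members at or near 0 cannot be told from failed estimates.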
